A study of Mus musculus with 2 samples.

Results

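The CXC chemokines other than *Cxcl12* were examined here as 10 genes of 31054 features: *Cxcl1*, *Cxcl2*, *Cxcl3*, *Cxcl5*, *Ppbp*, *Pf4*, *Cxcl9*, *Cxcl10*, *Cxcl14* and *Cxcl16*. The list was taken by name, without the use of their levels, and all 10 were found in the feature list and had at least 1 transcript count in both libraries. The cells came from the repair callus at 4 days post injury (dpi), after a 3 mm resection of rib bone. The control library was of genotype Sox9:CreER;R26:tdT;Smof/+ and the *Smo* cKO library of genotype Sox9:CreER;R26:tdT;Smof/f, and each was made from the pooled calluses of 3 mice. Both groups received tamoxifen before the injury, carried the tdTomato reporter and had at least 1 floxed *Smo* allele, and the mice were males and females 8 to 12 weeks old. The CreER is driven by Sox9, so recombination was possible only in cells of the Sox9+ lineage, and a recombined control cell still has 1 intact *Smo* allele. Each genotype is 1 library, so its difference from the other has no test, and the 95% intervals given below cover the counting error of these libraries alone. The intervals of levels and ratios take transcript counts as independent, so they leave out the spread between cells. Values given as a pair are those of the control and then of the *Smo* cKO library.

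CXC chemokines are small secreted proteins that direct leukocytes along a gradient held on cell surfaces and matrix. The ligands with a Glu-Leu-Arg motif, among them the products of *Cxcl1*, *Cxcl2*, *Cxcl3*, *Cxcl5* and *Ppbp*, draw neutrophils through the receptor *Cxcr2*. Of these genes, *Cxcl1*, *Cxcl2*, *Cxcl3* and *Cxcl5* are textbook targets of NF-kB downstream of interleukin-1, TNF and microbial products. *Cxcl9* and *Cxcl10* are induced by interferons and act through *Cxcr3* on T and NK cells. *Pf4* and *Ppbp* are known best as platelet granule proteins, *Cxcl16* is made as a transmembrane protein that is shed and binds *Cxcr6*, and *Cxcl14* is made by fibroblasts and epithelia, with a receptor that is less settled. In a bone callus the early days are the inflammatory phase, when neutrophils and monocytes enter the wound.

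On GRCm38, 8 members lie on chromosome 5 by the GENCODE vM21 annotation. Of these, 6 stand on the forward strand within 146.6 kb, in the order *Cxcl5* (chr5:90759360-90761624), *Ppbp* (chr5:90768518-90770063), *Pf4* (chr5:90772435-90773383), *Cxcl3* (chr5:90786103-90789600), *Cxcl1* (chr5:90891241-90893115) and *Cxcl2* (chr5:90903871-90905938). *Cxcl9* (chr5:92321347-92328079) and *Cxcl10* (chr5:92346638-92348889) are on the reverse strand of the same chromosome. *Cxcl16* (chr11:70453983-70459984) and *Cxcl14* (chr13:56288643-56296551) are on the reverse strand of other chromosomes. *Cxcl1*, *Cxcl2* and *Cxcl3* are close paralogs, so reads that match more than 1 of them could be lost or split by the counting.

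Promoter sequences were taken from RefSeq (GRCm38.p6) for 8 of the 10 members. *Cxcl5* and *Cxcl16* had no entry. The bases upstream of 5 members are shown, which were picked with their levels known. These genes had higher levels in the *Smo* cKO library in the connective tissue cells described below and carry motifs of the pathways known to induce them. In capitals are 9-base matches on either strand to GGNNNTTCC, a form of the NF-kB (kB) site, and in *Cxcl10* also to GAAANNGAA, a form of the interferon-response site. Each line reads 5′ to 3′ on the strand of the gene and ends at the base before the RefSeq start.
Cxcl1: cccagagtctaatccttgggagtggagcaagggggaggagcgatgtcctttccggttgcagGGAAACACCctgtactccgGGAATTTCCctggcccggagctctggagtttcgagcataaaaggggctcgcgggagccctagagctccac
Cxcl2: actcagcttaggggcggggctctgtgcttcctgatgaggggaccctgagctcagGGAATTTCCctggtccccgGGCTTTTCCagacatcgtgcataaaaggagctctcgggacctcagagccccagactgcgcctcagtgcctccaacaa
Cxcl3: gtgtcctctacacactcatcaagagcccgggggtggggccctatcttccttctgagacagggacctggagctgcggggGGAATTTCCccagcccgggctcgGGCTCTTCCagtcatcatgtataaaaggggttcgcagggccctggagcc
Cxcl9: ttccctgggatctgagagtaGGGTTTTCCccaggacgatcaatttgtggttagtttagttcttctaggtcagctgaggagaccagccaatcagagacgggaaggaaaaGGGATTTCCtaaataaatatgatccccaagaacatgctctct
Cxcl10: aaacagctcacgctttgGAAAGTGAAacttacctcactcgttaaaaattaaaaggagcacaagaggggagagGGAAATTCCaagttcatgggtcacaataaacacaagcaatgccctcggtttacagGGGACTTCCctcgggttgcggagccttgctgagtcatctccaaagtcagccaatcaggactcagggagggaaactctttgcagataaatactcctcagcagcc
These are chr5:90891095-90891244, chr5:90903749-90903898 and chr5:90785951-90786100 on the forward strand, and chr5:92328080-92328229 and chr5:92348890-92349119 on the reverse strand. The stricter kB form GGAATTTCC, whose matches are a subset of GGNNNTTCC, was found 70 to 62 bases before the start of *Cxcl1*, 96 to 88 bases before that of *Cxcl2* and 72 to 64 bases before that of *Cxcl3*. *Cxcl10* had it 158 to 150 bases before its start on the opposite strand, so that it stands in the line above as GGAAATTCC. In windows of 250 bases before the start, searched on both strands, 4 of the 8 members and 94 of 32851 promoters (0.2861%) held GGAATTTCC. GGNNNTTCC was found in 5 of the 8 members and in 15.66% of all promoters, and GAAANNGAA in 3 of the 8 members (*Cxcl9*, *Cxcl10* and *Cxcl14*) and in 7.129% of all promoters. The interferon-response match of *Cxcl9* lies 175 to 167 bases before its start, outside the stretch printed. *Cxcl14*, which has a match, was lower in the *Smo* cKO library in connective cells and is not printed. *Pf4* and *Ppbp* held none of these motifs, yet were also higher there (log2 ratios 0.27 and 0.89), and are not printed either. *Cxcl1*, *Cxcl2* and *Cxcl3* are close paralogs, so their matches are not independent. A match is a description of these letters and does not show that a factor was bound in the callus. Whether the motifs bear on the levels was not tested.

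The control library held 10747 barcodes with 105367110 counts of unique molecular identifiers (UMIs), and the *Smo* cKO library 10512 barcodes with 112700220 UMIs. Cells with at least 200 detected genes and under 10% of UMIs on mitochondrial genes were kept, which left 10057 control cells (median 8367 UMIs) and 9507 *Smo* cKO cells (median 9092 UMIs). The study also left out cells with more than 2000 genes, which here are 58.01% of the kept control and 59.41% of the kept *Smo* cKO cells. They were retained, and 26 class ratios were recomputed without them. Of the 23 whose interval excluded 0, each that turned direction is given both ways. Other class ratios, those of the pathway genes among them, were not recomputed without these cells. UMI sources, the order of classes, co-detection, counts of genes past 2-fold and correlations were not computed without them. The same holds for the ranges of a class that are scored by marker genes. *Smo*, the deleted gene, had 18.83 and 12.11 CPM (UMIs of the gene per 1000000 UMIs of the class) in connective cells. The log2 ratio there was -0.64 (interval -0.75 to -0.53). Muscle cells fell from 18.42 to 2.78 CPM (18 and 7 UMIs, -2.73, interval -4.23 to -1.40). Macrophages fell from 3.29 to 1.15 CPM (11 and 7 UMIs, -1.51, interval -3.12 to -0.02). The lower *Smo* level was thus not limited to connective cells, and its cause in each class was not tested. Of the kept barcodes, 599 were present in both libraries. In 489 of these the cell in 1 library had under 10% of the UMIs of its namesake in the other, where 336 of these small cells lay on the control side and 153 on that of the *Smo* cKO. The shared barcodes hold 7.325% of the kept control UMIs and 12.91% of the kept *Smo* cKO UMIs. Without them, all 23 of the 26 class ratios examined whose interval excluded 0 kept their direction.

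Cells were placed in classes by the share of each class's marker genes that they expressed, with no member and no CXC receptor among the markers. Connective cells (*Col1a2*, *Col3a1*, *Dcn* and others) numbered 7016 and 5956. Macrophage or monocyte cells (*Csf1r*, *C1qa*, *Adgre1* and others), below called the macrophage class, were 1119 and 1589, and dendritic cells 340 and 178. Neutrophils were 84 and 117, osteoclasts 203 and 122, muscle cells 94 and 213, and endothelial cells 54 and 59. The typical connective cell expressed 90% of its own markers and 12.5% of those of the next class, and the typical macrophage 60% or 70% of its own and 30% of the connective markers. Another 10.31% and 11.25% of cells met no class or had no clear lead for 1 class. Within 0.05 of a cut-off lay 862 control and 843 *Smo* cKO cells, so the classes are ranges of a score rather than sharp types. No cell of either library met the megakaryocyte or platelet class. Median depth differed between classes, from 10990 and 13570 UMIs in connective cells to 1122 and 1569 UMIs in neutrophils, with 2625 and 3371 in macrophages and 9275 and 11790 in osteoclasts. Shares of cells with a UMI are therefore given after each cell was thinned to 1000 UMIs, unless stated otherwise. Shallower cells drop out of these shares, which leaves 6743 and 5818 connective cells, 1074 and 1553 macrophages and 48 and 89 neutrophils.

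The members fell into a few patterns of source. Connective cells held 96.33% and 93.9% of the *Cxcl1* UMIs, and 98.32% and 98.07% of the *Cxcl5* UMIs. *Cxcl9* (91.09% and 95.1%), *Cxcl10* (84.38% and 80.71%) and *Cxcl14* (91.76% and 80.38%) also lay mostly in connective cells, which are the largest class. Macrophages held 69.44% and 74.75% of the *Pf4* UMIs and 49.62% and 47.37% of those of *Ppbp*. *Cxcl2*, *Cxcl3* and *Cxcl16* were shared, with 70.21% and 63.33% of *Cxcl2* UMIs, 73.14% and 69.81% of *Cxcl3* UMIs and 54.52% and 44.48% of *Cxcl16* UMIs in connective cells, and with 16.27% and 23.78%, 13.98% and 15.92%, and 25.21% and 40.85% in macrophages.

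**Figure D1:**
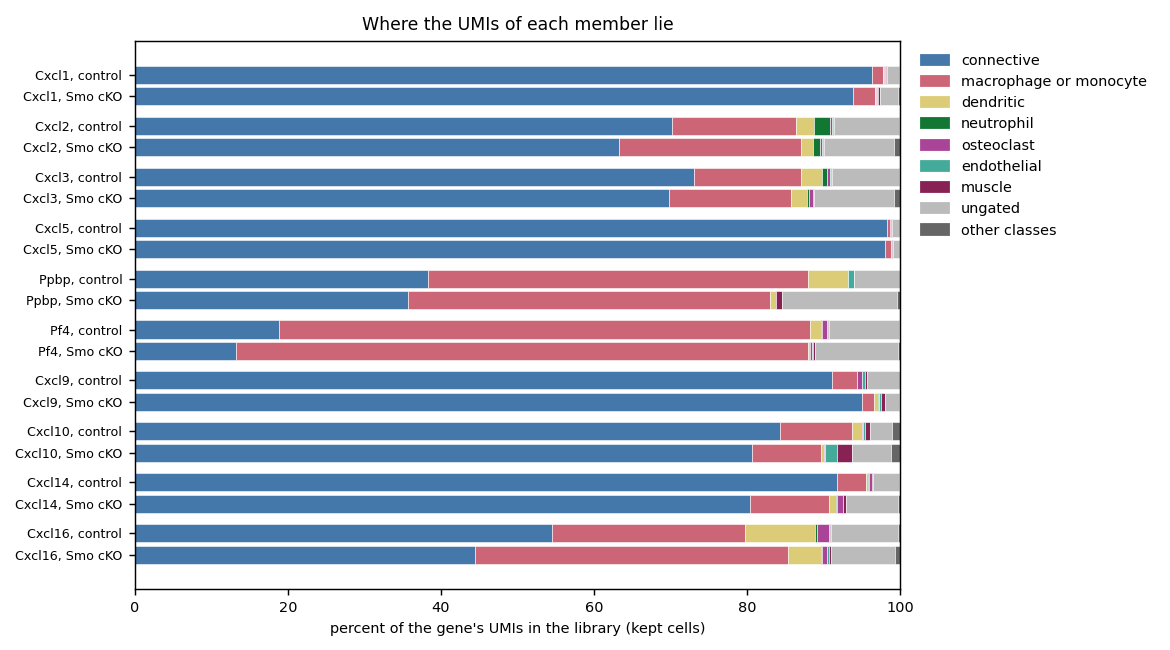
Share of each gene's UMIs (x axis, percent of the gene's UMIs in the kept cells of a library) that lay in each cell class, with 1 bar per gene and library. Connective cells fill over 90% of the *Cxcl1* and *Cxcl5* bars, whereas the *Pf4* bars are filled mostly by macrophages (69.44% and 74.75%).

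As a level per UMI of the class, the order of the classes differed between members. *Cxcl1* and *Cxcl5* were highest in connective cells in both libraries, with intervals that did not overlap the next class. *Cxcl2* stood highest in control neutrophils, then macrophages, dendritic cells and connective cells, with no overlap between these neighbors, while in the *Smo* cKO library the macrophage and neutrophil intervals overlapped. *Pf4* was highest in macrophages and *Cxcl16* in dendritic cells and macrophages, which overlapped each other in the *Smo* cKO library only. *Cxcl14* had overlapping intervals in control macrophages and connective cells, and among *Smo* cKO cells in macrophages and dendritic cells and in dendritic and connective cells. The *Cxcl9* intervals of all neighboring classes overlapped in both libraries.

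**Figure D2:**
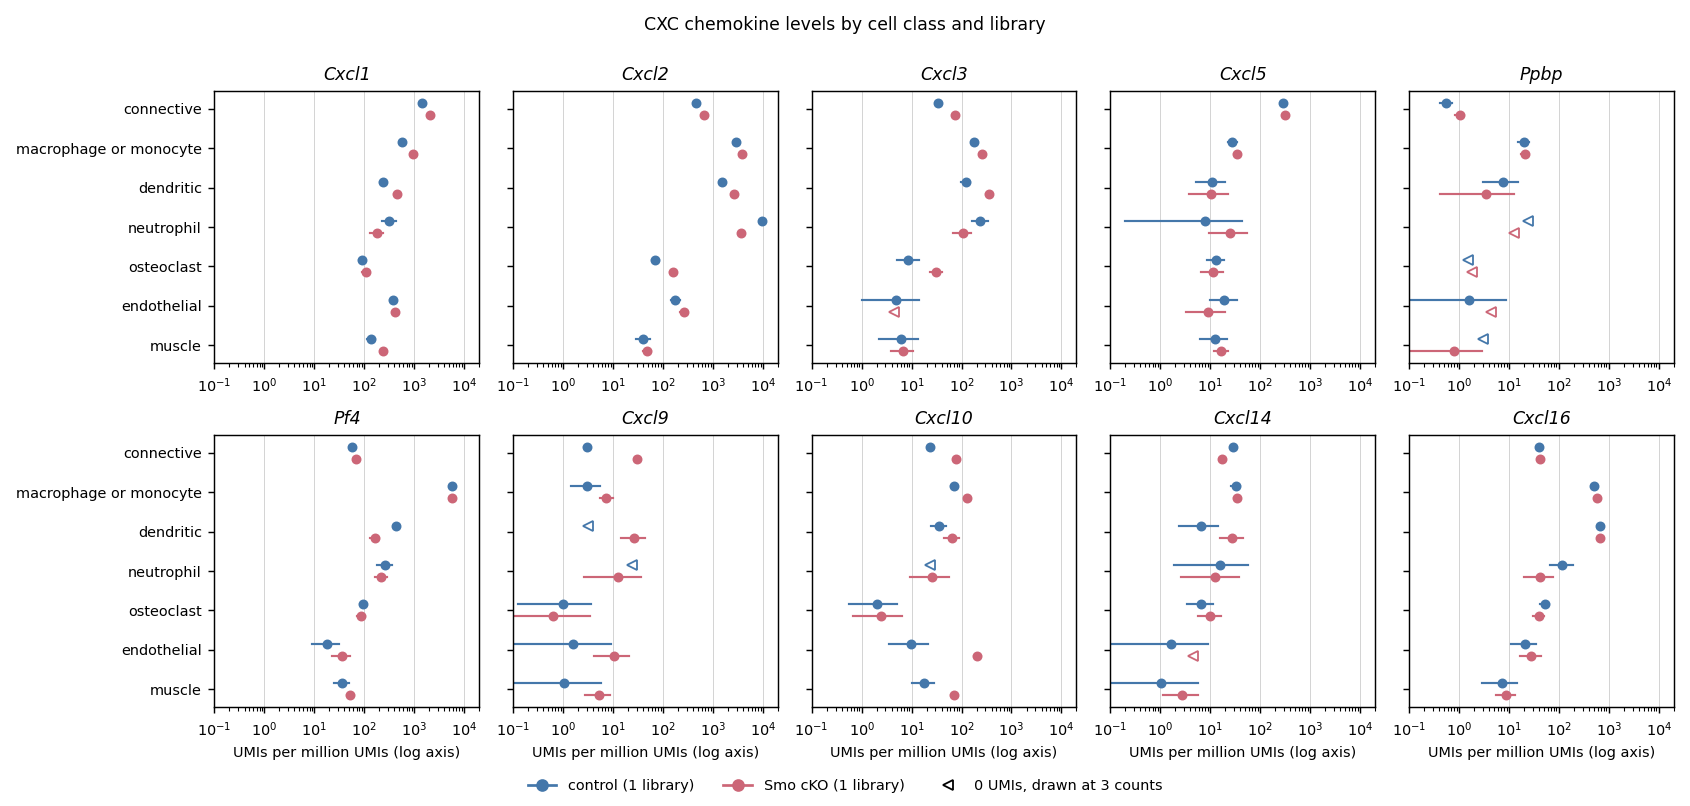
Level of each member (x axis, CPM, log axis) in 7 cell classes, with 1 point per library and 95% Poisson intervals that cover counting error. In the connective row the *Smo* cKO point lies to the right of the control point for *Cxcl1*, *Cxcl2*, *Cxcl3*, *Cxcl9* and *Cxcl10* and to the left for *Cxcl14*, and in the neutrophil row the *Cxcl2* point moves from 9677 to 3599 CPM.

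*Cxcl1*, which encodes a neutrophil-attracting ligand, was found in most connective cells. Its level there was 1426 and 2028 CPM, a log2 ratio of *Smo* cKO to control of 0.51 (interval 0.50 to 0.52), and 59.57% and 66.04% of thinned cells had a UMI. At full depth the share was 90.81% and 93.42%, and the median cell held 11 and 17 UMIs. Macrophages had 572 and 943.7 CPM (log2 ratio 0.72, interval 0.65 to 0.80), and dendritic cells 232.9 and 445.7 CPM (0.94, interval 0.669 to 1.204). In each of these classes the *Smo* cKO library was higher. Neutrophils had 315.5 and 176.8 CPM from 40 and 42 UMIs, lower in the *Smo* cKO library (-0.84, interval -1.50 to -0.17), and 1 control cell held 27.5% of the 40 UMIs. Among connective cells with up to 2000 genes the ratio was 0.04 (interval 0.00 to 0.08). It was 0.59 in those with 200 to 1000 genes (691 and 850 UMIs), 0.01 with over 1000 and up to 2000 genes, 0.46 with over 2000 and up to 3500 and 0.67 with more, so it did not follow depth in 1 direction. *Cxcl1* UMIs were also set beside those of connective genes, and connective cells had 6.87 and 11.44 *Cxcl1* UMIs per 100 UMIs of *Col1a2*, *Col3a1* and *Dcn*. Macrophages had 42.79 and 77.26 per 100, above that ratio in both libraries, while osteoclasts had 9.05 and 12.14, with a UMI in 8% and 5.738% of thinned cells. Neutrophils had 8.83 (interval 6.31 to 12.02) and 11.2 (interval 8.07 to 15.14) per 100, near the connective ratios and not lower in the *Smo* cKO library. Connective markers in neutrophils were at 4369 and 1995 CPM (log2 ratio -1.13). The part of RNA leaked from connective cells in the *Cxcl1* values of other classes was not tested.

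*Cxcl2*, the paralog that is best known as a macrophage inflammatory protein, was found at 464 and 678.3 CPM in connective cells (log2 ratio 0.55, interval 0.53 to 0.57), with a UMI in 24.53% and 30.01% of thinned cells. Macrophages had 2938 and 3850 CPM (0.39, interval 0.36 to 0.42), and dendritic cells 1526 and 2639 CPM (0.79, interval 0.69 to 0.90). Levels were higher in the *Smo* cKO library in all 3 classes, although with stricter class cut-offs the dendritic ratio was -0.15. The *Cxcl2* UMIs of a class were held by few cells: the top 10% of connective cells carried 61.08% and 58.35% of them. Among connective cells with up to 2000 genes the ratio was 0.51 (interval 0.45 to 0.57), close to that of all connective cells.

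In neutrophils the order was the opposite. *Cxcl2* was at 9677 CPM in control neutrophils (1227 UMIs in 84 cells) and at 3599 CPM in those of the *Smo* cKO (855 UMIs in 117 cells), with a log2 ratio of -1.43 (interval -1.56 to -1.30). A single control neutrophil held 370 of the 1227 UMIs (30.15%), and without the top cell of each library the ratio was -1.17. With each cell given the same weight it was -0.96, and with stricter class cut-offs -0.74. The thinned share was 64.58% and 50.56%, with an interval of the difference from -29.8 to 3.39 points. Markers of other classes in these neutrophils differed too, in both directions. The UMIs of the 8 dendritic markers were 243 and 14 (1916 and 58.92 CPM, with *Flt3* and *Cd209a* at 0 in both), and connective markers were at 4369 and 1995 CPM, while macrophage markers were at 1175 and 1187 CPM with *Fcgr1* at 0 in both and neutrophil markers at 238400 and 287700 CPM. Endothelial markers had 3 and 51 UMIs (23.66 and 214.7 CPM, with 7 of 10 and 1 of 10 at 0), and osteoclast markers were at 559.9 and 681.8 CPM. The part of this RNA in the *Cxcl2* values was not tested. Plasmacytoid dendritic cells, of which there were 30 and 24, went the other way, with 18 and 428 *Cxcl2* UMIs found in 4 and 10 cells.

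*Cxcl3*, the next ligand of this group, had 33.57 and 72.79 CPM in connective cells (log2 ratio 1.12, interval 1.06 to 1.18), with a UMI in 2.862% and 5.156% of thinned cells. Macrophages had 175.4 and 251 CPM (0.52, interval 0.38 to 0.66). Dendritic cells had 120.8 and 355.1 CPM (1.56, interval 1.22 to 1.90), from 112 and 204 UMIs, of which 1 *Smo* cKO cell held 29.9%. Without the top cell of each library the dendritic ratio was 1.17. All 3 classes were thus higher in the *Smo* cKO library. The 30 and 25 UMIs of neutrophils gave a ratio of -1.17, but 1 control cell held 50% of the 30 UMIs, the ratio was 0.09 with looser class cut-offs and 2.42 with stricter ones.

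*Cxcl5*, a ligand of the same receptor that stromal cells are known to make, was at 283.1 and 315.6 CPM in connective cells (log2 ratio 0.16, interval 0.13 to 0.18). Its share of thinned cells went the other way, at 17.8% and 14.46% (difference -3.34 points, interval -4.62 to -2.05), and with each cell given equal weight the ratio was -0.11. Fewer *Smo* cKO cells therefore held more UMIs each, and the top 10% of cells carried 62.64% and 74.98% of the *Cxcl5* UMIs. Among cells with up to 2000 genes the level was lower in the *Smo* cKO library, at -1.04 (interval -1.17 to -0.92). Other classes had few *Cxcl5* UMIs. Osteoclasts had 1.32 and 1.27 *Cxcl5* UMIs per 100 UMIs of the 3 connective genes, beside 1.36 and 1.78 in connective cells, and 2.5% and 1.64% of thinned osteoclasts had a UMI. Macrophages had 2.08 and 2.84 per 100, from 93 and 211 UMIs, of which 1 *Smo* cKO cell held 21.33%.

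In connective cells and macrophages a cell with 1 of *Cxcl1*, *Cxcl2*, *Cxcl3* and *Cxcl5* had another of them more often than a cell without it. The margin could be small, with *Cxcl2* in 61.22% of thinned *Smo* cKO macrophages with *Cxcl5* and 60.84% of those without. The order was not limited to this group. *Cxcl2* was found in 42.6% of thinned control connective cells with *Cxcl10* and 24.06% of those without. With *Cxcl16*, each gene of the group was found more often in connective cells of both libraries. Control macrophages went the other way for *Cxcl2*, at 57.04% with *Cxcl16* and 59.72% without. *Pf4*, also outside this group, gave both orders in thinned control connective cells. In the control cells *Cxcl2* was found in 39.23% of cells with *Pf4* and 23.94% of those without, and *Cxcl1* in 54.62% and 59.77%. In thinned control connective cells *Cxcl1* was found in 80.35% of cells with a *Cxcl2* UMI and in 52.82% of those without, and the *Smo* cKO shares were 84.08% and 58.3%. *Cxcl5* was found in 37.82% of control cells with *Cxcl3* and in 17.21% of those without, and in 42% and 12.96% of the *Smo* cKO cells. For macrophages the shares of cells with *Cxcl1* with and without *Cxcl2* were 41.27% and 11.71% in control cells, and 53.54% and 18.26% in those of the *Smo* cKO. In the 48 thinned control neutrophils the order was the opposite, with *Cxcl1* in 16.13% of cells with *Cxcl2* (5 of 31) and 35.29% of those without. The 89 thinned *Smo* cKO neutrophils had the order of the other classes, at 15.56% (7 of 45) and 6.818%. Over the 14 sums of 7 classes and 2 libraries, *Cxcl2* and *Cxcl3* had a Pearson r of 0.83 and *Cxcl1* and *Cxcl5* one of 0.77, as a description over sums that share libraries and depth.

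Of genes that reached 50 CPM in at least 1 library, those at least 2-fold higher in *Smo* cKO connective cells were 0.778% and those at least 2-fold lower 0.156% of 2570. This floor was reached by 6 members (*Cxcl1*, *Cxcl2*, *Cxcl3*, *Cxcl5*, *Pf4* and *Cxcl10*), of which *Cxcl3* and *Cxcl10* were past 2-fold higher and none lower. Their median log2 ratio was 0.53, beside 0.05 over all 2570 genes. In macrophages 1.57% of 2483 genes were past 2-fold higher and 0.282% lower, and none of the 6 members at the floor was. In dendritic cells the shares were 3.12% and 1.15% of 2437 genes, and of 6 members *Cxcl3* was past 2-fold higher and *Pf4* past 2-fold lower. In the small neutrophil class 9.22% of 2159 genes were past 2-fold higher and 14.8% lower, and of 5 members none was higher and 3 (*Cxcl2*, *Cxcl3* and *Cxcl16*) were lower.

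*Pf4*, or platelet factor 4, was a macrophage transcript in this callus. It had 5643 and 5778 CPM in macrophages, a log2 ratio of 0.03 (interval 0.01 to 0.06) that was -0.07 with stricter class cut-offs, and 80.35% and 81.65% of thinned macrophages had a UMI. The 8 megakaryocyte and platelet markers summed to 1.195 and 1.316 CPM in macrophages, with 6 of them at 0 UMIs in the control (*Gp9* and *Tubb1* among them) and 5 in the *Smo* cKO library. Connective cells had a low level, at 55.95 and 67.37 CPM, with a UMI in 3.856% and 5.517% of thinned cells. Neutrophils had 260.2 and 218.9 CPM, from 33 and 52 UMIs. The 30 and 24 plasmacytoid dendritic cells had 72.4 and 802.6 CPM, from 5 and 78 UMIs found in 2 and 8 cells. *Pf4* UMIs per 100 UMIs of the complement genes *C1qa*, *C1qb* and *C1qc* were 105.7 and 113.6 in connective cells, beside 97.16 and 80.94 in macrophages, so the ratios lay near each other in the control and further apart in the *Smo* cKO library. Among connective cells with over 1000 and up to 2000 genes the *Pf4* ratio was 1.94, and with over 3500 genes it was 0.05.

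Dendritic cells differed more in *Pf4*, with 427 and 160.2 CPM from 396 and 92 UMIs and a log2 ratio of -1.42 (interval -1.76 to -1.08). One *Smo* cKO cell held 29.35% of the 92 UMIs, and without the top cell of each library the ratio was -1.81. The 10 macrophage markers were at 1634 and 1668 CPM in the same dendritic cells, with all 10 found in both libraries. The thinned share was 14.38% and 8.876%, with an interval of the difference from -11.1 to 0.80 points.

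Within macrophages *Pf4* varied with the range of cells. Cells that scored high for *Arg1*, *Spp1* and *Gpnmb* (77 and 264 cells) had 13460 and 8859 CPM (log2 ratio -0.60), and those high for *Ccl8*, *Mrc1* and C1q (92 and 183 cells) had 8828 and 5901 CPM (-0.58). Cells high for the monocyte genes *Ly6c2* and *Ccr2* among others (115 and 203 cells) had 4070 and 5210 CPM (0.36, interval 0.26 to 0.45), and those in no range (835 and 939 cells) 4678 and 4984 CPM. *Pf4* was thus lower in the *Smo* cKO library in both macrophage ranges and higher in the monocyte range, beside a ratio of 0.03 for the whole class. The *Arg1* range made up 6.881% of control and 16.61% of *Smo* cKO macrophages.

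*Ppbp*, which lies between *Cxcl5* and *Pf4*, was rare, with 133 UMIs in 97 control cells and 266 UMIs in 136 *Smo* cKO cells. Macrophages had 19.72 and 20.72 CPM (66 and 126 UMIs, log2 ratio 0.07, interval -0.37 to 0.52). Connective cells held 38.35% and 35.71% of the *Ppbp* UMIs, at 0.56 and 1.03 CPM. Their log2 ratio was 0.89 (51 and 95 UMIs, interval 0.38 to 1.41), and 1 *Smo* cKO cell held 13 of the 95 UMIs. All 20 of the thinned *Smo* cKO macrophages with *Ppbp* also had *Pf4*, which was found in 81.41% of the others. Osteoclasts and neutrophils had 0 *Ppbp* UMIs in both libraries. For the 3 counts that a count of 0 allows, this gives a limit of 1.52 CPM in control and 1.87 CPM in *Smo* cKO osteoclasts, and 23.7 and 12.6 CPM in neutrophils.

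*Cxcl9* and *Cxcl10*, the interferon-induced ligands of *Cxcr3*, had the highest ratios among the members in connective cells. *Cxcl9* had 276 and 2737 UMIs in connective cells, at levels of 3.02 and 29.8 CPM and with a log2 ratio of 3.30 (interval 3.12 to 3.49). A UMI was found in 2.01% and 15.8% of cells at full depth and in 0.267% and 2.458% of thinned cells, beside 0.5% and 0% of thinned osteoclasts (1 of 200 and 0 of 122). The values lie under the floor of 50 CPM used for counts of genes. At an alternative floor of 20 CPM, which 5189 genes reached, 42 genes were past 2-fold higher in connective cells and 3 members, *Cxcl3*, *Cxcl9* and *Cxcl10*, were among them. Among cells with up to 2000 genes the *Cxcl9* ratio was 2.21 (interval 1.66 to 2.78), and in the 4 ranges of detected genes it lay between 2.19 and 3.78.

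*Cxcl10* was at 23.39 and 77.41 CPM in connective cells (log2 ratio 1.73, interval 1.66 to 1.80), with a UMI in 2.506% and 6.188% of thinned cells, beside 0% and 0.82% of thinned osteoclasts. Macrophages had 70.53 and 129.4 CPM (0.88, interval 0.66 to 1.09), dendritic cells 35.58 and 64.41 CPM (0.86, interval 0.14 to 1.58) and muscle cells 17.4 and 70.78 CPM (2.02, interval 1.30 to 2.84). Each of these classes was higher in the *Smo* cKO library. Endothelial cells had 6 and 140 UMIs, or 9.64 and 207.2 CPM (4.43, interval 3.27 to 5.90), but 1 *Smo* cKO cell held 90 of the 140 UMIs (64.29%), the ratio without the top cells was 3.23, and the 16 and 22 endothelial cells with up to 2000 genes had -0.39 with an interval from -6.69 to 5.90. Among connective cells with up to 2000 genes the *Cxcl10* ratio was 1.09 (interval 0.88 to 1.30), and in the shallowest range, with 200 to 1000 genes, it was -0.41 (interval -1.17 to 0.33). *Cxcl10* was found in 17.48% of thinned *Smo* cKO connective cells with *Cxcl9* and in 5.903% of those without.

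**Figure D3:**
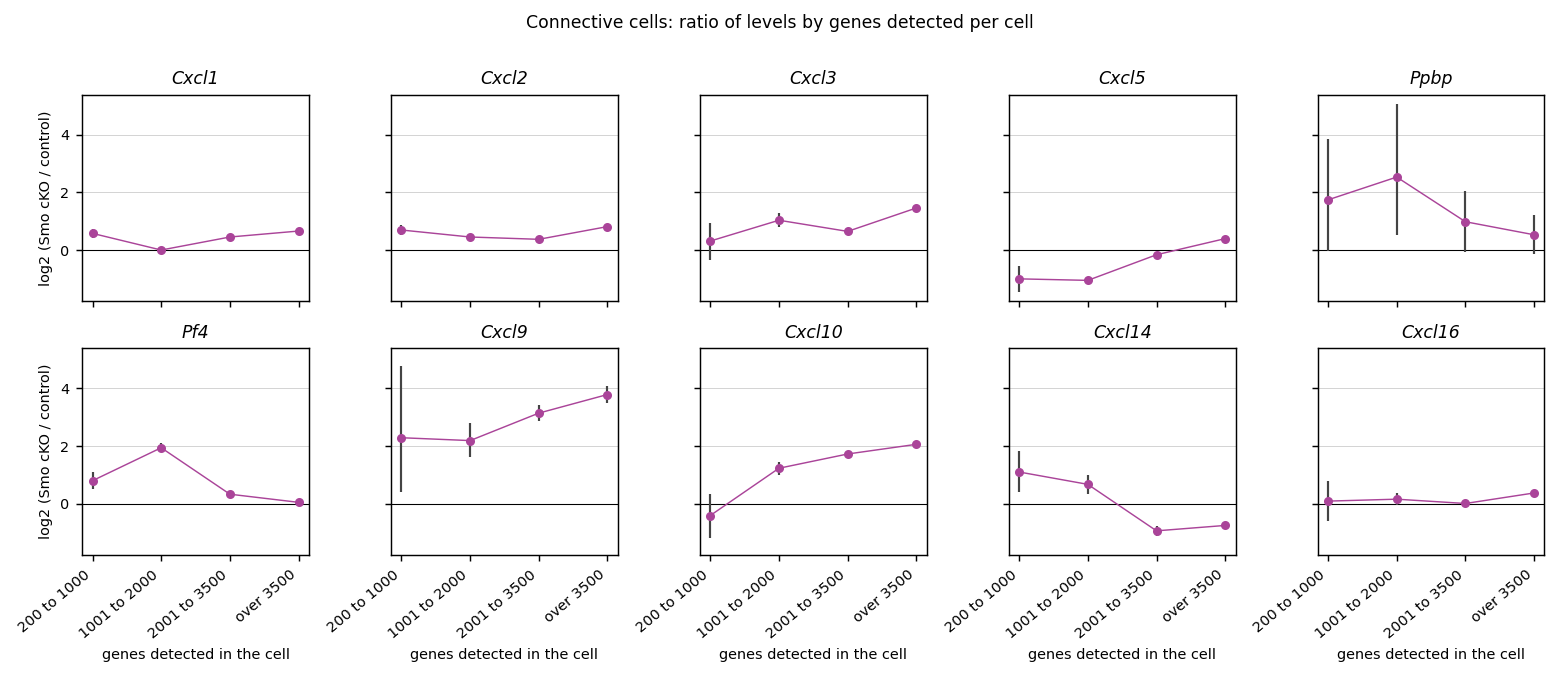
Log2 ratio of *Smo* cKO to control level (y axis) in connective cells split by the number of genes detected in the cell (x axis, 4 ranges), with 95% counting intervals and a line at 0. *Cxcl9* stays between 2.19 and 3.78, while *Cxcl14* lies above 0 in the 2 shallow ranges and below 0 in the 2 deep ones and *Cxcl5* lies below 0 in the first 3 ranges and at 0.40 in the deepest.

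*Cxcl14*, a homeostatic chemokine of stroma, was the member lower in *Smo* cKO connective cells, at 28.11 and 17.3 CPM (log2 ratio -0.70, interval -0.79 to -0.61), with a UMI in 2.239% and 1.564% of thinned cells. The direction held only in deep cells. The ratio was 1.10 in connective cells with 200 to 1000 genes and 0.67 with over 1000 and up to 2000 genes, then -0.93 with over 2000 and up to 3500 and -0.75 with more. Among all cells with up to 2000 genes it was 0.84 (interval 0.54 to 1.14), from 1668 control and 1050 *Smo* cKO connective cells. Macrophages had 32.28 and 33.88 CPM (0.07, interval -0.27 to 0.42). Their 2.41 and 2.77 *Cxcl14* UMIs per 100 UMIs of the connective genes were above the 0.135 and 0.0975 of connective cells, and 2.328% and 2.962% of thinned macrophages had a UMI.

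*Cxcl16*, the transmembrane member, had ratios near 0 in the classes that held most of its UMIs. Dendritic cells had 683.6 and 670.3 CPM (log2 ratio -0.03, interval -0.22 to 0.16), macrophages 517.9 and 592.1 CPM (0.19, interval 0.11 to 0.28) and connective cells 40.98 and 42.65 CPM (0.06, interval -0.01 to 0.12). Its UMIs were spread over cells, with 39.66% and 42.82% of thinned macrophages having one, and the top 10% of macrophages held 32.6% and 31.03% of them. Neutrophils had 15 and 10 UMIs, with a ratio of -1.49 that was 1.15 with stricter class cut-offs.

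Connective cells of the callus are not uniform, and the members differed between their ranges, which were defined by genes known from earlier results of these data and by a score at least 2 times the class mean. *Cxcl1* was highest in the control in the adventitial range (*Pi16*, *Dpp4* and *Cd34* among others), at 2454 CPM, beside 2313 CPM in the *Smo* cKO library, and in the *Sfrp4* *Eln* *Col14a1* range, at 2335 and 2570 CPM. Its lowest levels were in the osteoblast lineage range (685.7 and 1087 CPM) and in the *Fmod* *Acan* *Col11a1* range (774 and 1427 CPM). In all connective ranges but the adventitial (log2 ratio -0.09) the *Cxcl1* level was higher in the *Smo* cKO library, with ratios from 0.14 to 0.88. *Cxcl2* followed the same order of genotypes, with -0.28 in the adventitial range, 0.05 in the *Sfrp4* *Eln* *Col14a1* range and up to 1.22 in the acute phase range (*Hp*, *Saa3* and *Lcn2* among others).

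The acute phase range itself differed in size, with 941 control cells (13.41% of the connective class) and 117 *Smo* cKO cells (1.964%). Its genes were known from earlier results of these data to be lower in *Smo* cKO fibroblasts, so this difference in size is not a separate result. The range had the highest *Cxcl14* levels, at 82.25 and 185.7 CPM. *Cxcl14* was higher in the *Smo* cKO library in this range (log2 ratio 1.17, interval 0.96 to 1.39) and in the adventitial range (23.62 and 54.42 CPM, 1.204, interval 0.79 to 1.63). However, 1 *Smo* cKO connective cell held 113 of the 1590 *Cxcl14* UMIs of its class. The range of that cell was not looked up, and the range ratios were not computed without it. The size or direction of a ratio in these small ranges could therefore depend on that cell. *Cxcl14* was lower in the tendon range (20.53 and 9.17 CPM, -1.16) and in the cells of no range (18.76 and 12.07 CPM, -0.64). Without the acute phase range the connective ratio was -0.52 (interval -0.62 to -0.42), beside -0.70 with it. *Cxcl5* was also highest in that range, at 538.9 and 856 CPM, and in the *Serpinb2* *Dlk1* range, at 530.9 and 814 CPM. It was lower in the *Smo* cKO library in the *Sfrp4* *Eln* *Col14a1* range, at 271.2 and 115.5 CPM (-1.23, interval -1.38 to -1.09).

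*Cxcl9* and *Cxcl10* were higher in the *Smo* cKO library in every connective range. *Cxcl9* was highest in the *Smo* cKO library in the tendon range (1.88 and 53.05 CPM, log2 ratio 4.82, interval 4.03 to 5.74) and its ratio was largest in the *Tnc* *Inhba* range (0.732 and 30.27 CPM, 5.37, interval 4.37 to 6.60, with 8 UMIs in the control). The lowest ratio was that of the osteoblast lineage range (10 and 29 UMIs, 1.10, interval 0.02 to 2.30). For *Cxcl10* the ratios ran from 0.46 in the adventitial to 2.94 in the *Tnc* *Inhba* range. Cells with a tdTomato UMI, which marks the recombined lineage, were few, with 51 control and 129 *Smo* cKO connective cells. Their *Cxcl9* ratio was 2.48 (4 and 77 UMIs, interval 1.07 to 4.39), beside 3.31 in the cells without a tdTomato UMI, and for *Cxcl1* the ratios were 0.83 and 0.51. A cell without a tdTomato UMI can still belong to the lineage.

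**Figure D4:**
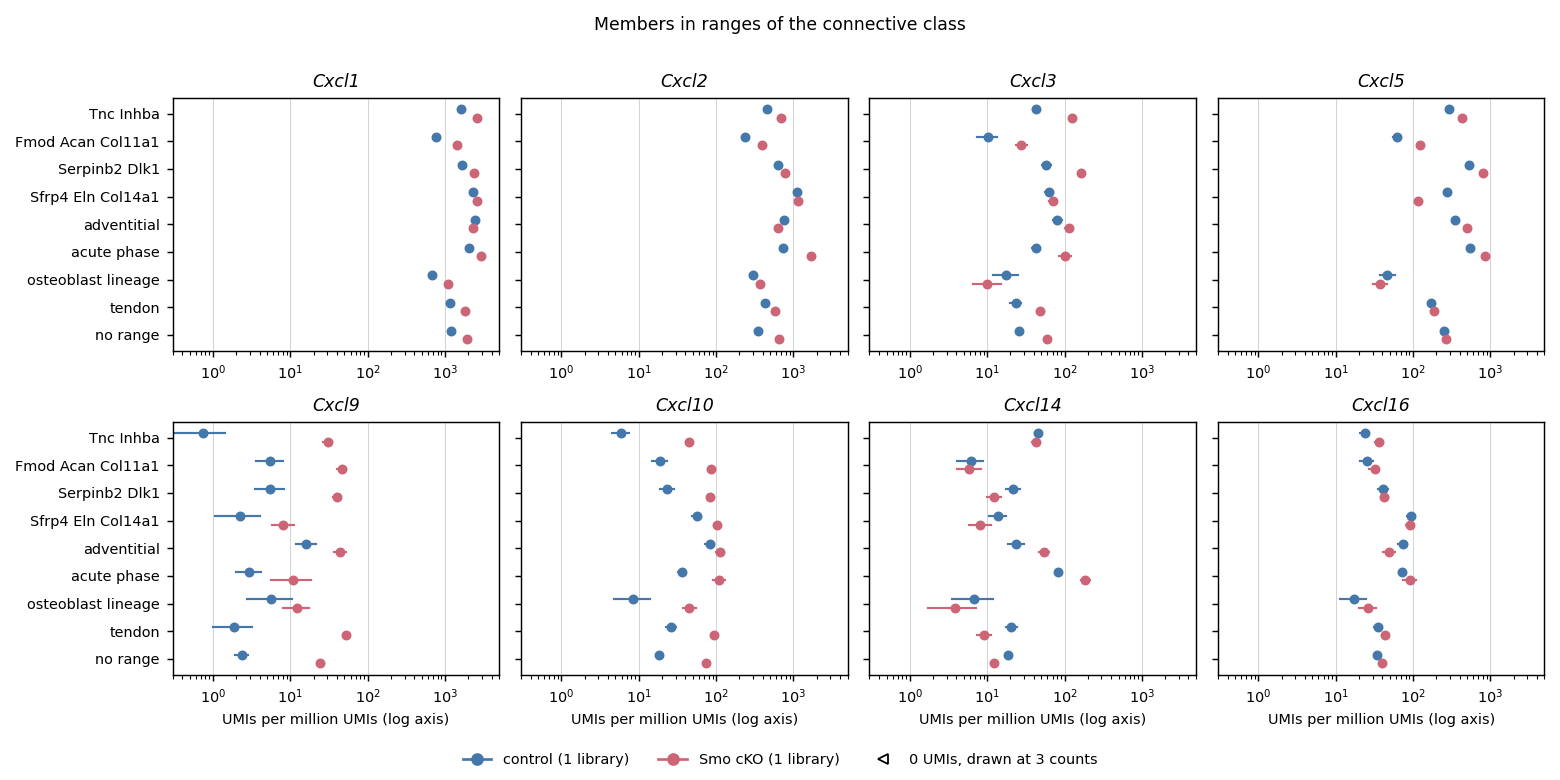
Level of 8 members (x axis, CPM, log axis) in ranges of the connective class, with 1 point per library and 95% counting intervals. For *Cxcl9* and *Cxcl10* every *Smo* cKO point lies to the right of its control point, while for *Cxcl14* it does so in the acute phase range (82.25 to 185.7 CPM) and the adventitial range (23.62 to 54.42 CPM) and not in the others. A single *Smo* cKO connective cell held 113 of the 1590 *Cxcl14* UMIs of its class, and the ranges were not computed without it.

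Of the other CXC ligands, *Cxcl11* was not among the features. *Cxcl13* had 86 UMIs in 27 control cells, 30 of them in 1 cell, and 45 UMIs in 31 *Smo* cKO cells, *Cxcl17* had 8 and 5 UMIs and *Cxcl15* had 0. The receptors were rare. *Cxcr2*, the receptor of the neutrophil-attracting ligands, was the only 1 of 6 receptor genes to reach 50 CPM in neutrophils, at 149.8 and 138.9 CPM (19 and 33 UMIs, log2 ratio -0.11, interval -0.97 to 0.79). *Cxcr3* had 0 UMIs in 14 control and 8 UMIs in 61 *Smo* cKO T cells, and *Cxcr6*, the receptor of *Cxcl16*, had 10 and 18 UMIs in the same cells. *Ackr1*, an endothelial receptor that binds chemokines without signaling, had 56 and 26 UMIs in endothelial cells, at 89.97 and 38.48 CPM (-1.23, interval -1.96 to -0.53).

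Of 10 cytokine genes listed, interferons among them, 1 reached 50 CPM in connective cells and 2 did in macrophages, and none passed 2-fold there. *Il6*, which connective cells make in inflammation, was at 103.4 and 140.4 CPM in connective cells (log2 ratio 0.44, interval 0.40 to 0.48). *Il1b*, which encodes interleukin-1 beta, was at 116.3 and 217.6 CPM in macrophages (0.90, interval 0.74 to 1.07) and at 1005 and 2291 CPM in dendritic cells (1.19, interval 1.07 to 1.31). It was thus higher in the *Smo* cKO library in both classes, but lower in neutrophils, at 1293 and 820.7 CPM (-0.66, interval -0.96 to -0.35). *Tnf* was at 137.5 and 136.8 CPM in macrophages (-0.01, interval -0.17 to 0.16). On the receiving side, *Il1r1*, the interleukin-1 receptor, was at 91.68 and 60.31 CPM in connective cells (-0.60, interval -0.65 to -0.56), and *Tnfrsf1a*, a TNF receptor, was at 108.5 and 109 CPM.

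Of 8 genes of NF-kB feedback and cofactors, 4 reached 50 CPM in connective cells and 5 in macrophages, with none past 2-fold and a median log2 ratio of 0.23 and -0.13. *Nfkbia*, the inhibitor that NF-kB itself induces, had the largest of these ratios in connective cells, at 810.4 and 1205 CPM (0.57, interval 0.56 to 0.59), and was at 1140 and 1314 CPM in macrophages (0.20). In neutrophils 3 of the 6 at the floor (*Tnfaip3*, *Nfkb2* and *Zc3h12a*) were past 2-fold lower, each from at most 15 UMIs in a library.

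Of 8 genes of the interferon-gamma response none reached 50 CPM in connective cells. *Iigp1* and *Gbp3*, interferon-induced GTPases, had log2 ratios of 2.86 and 2.54 there, and their relatives *Gbp2* and *Gbp5* had 1.22 and 0.78. *Irf1*, an interferon-induced transcription factor, had 0.69, *Socs1*, an inhibitor of cytokine signaling, 0.70 and *Cd274*, which encodes PD-L1, 0.46, so each of these was higher in the *Smo* cKO library. These ratios are of genes under the floor and are given without intervals. With no floor in CPM, many genes of connective cells passed 2-fold in both directions, so they are less firm than the ratios above. *Ifng* itself had 9 UMIs in all control and 45 in all *Smo* cKO cells. These are totals and not levels per cell, and the libraries held 14 and 61 T cells and 8 and 29 NK cells. Of the 6 genes for proteoglycans and shedding, *Adam10* and *Adam17*, proteases that release *Cxcl16*, were at 58.88 and 45.56 CPM and at 80.69 and 67.1 CPM in macrophages. *Sdc4*, a heparan sulfate proteoglycan, was at 419 and 337 CPM there (-0.31, interval -0.41 to -0.22).

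The genes whose levels over the 14 class sums were most like those of a member were listed by Pearson r of log2(CPM + 1), with 1 CPM added, as a description only. For *Cxcl1* they were *Ccl7* (0.92), *Fn1* and *Rnase4*, for *Cxcl2* *Cd14* (0.95), *Ptp4a1* and *Ccrl2*, and for *Cxcl3* *Ezr* (0.92), *Clec4n* and *Nlrp3*. *Cxcl5* was most like *Cdh11* (0.94), *Col12a1* and *Angptl2*. *Pf4* was most like *Apoe* (0.97), *Adgre1* and *Cebpa*, *Ppbp* most like *Fcgr1* (0.96), *Fabp5* and *Ccl12*, and *Cxcl16* most like *Fcgr2b* (0.97), *Ubash3b* and *Ms4a6c*. *Cxcl9* and *Cxcl10* shared *Ifit3* as the first gene, at 0.78 and 0.84, and were followed by *Adprh* and *Gm10036*, and by *Pea15a* and *Ahcyl2*. *Cxcl14* was most like *Mmp19* (0.91), *Htatip2* and *Gsn*. *Ppbp*, *Cxcl9* and *Cxcl14* did not reach 50 CPM in any of the 14 sums and had few UMIs in several classes, so their r values are less firm.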

How the data were processed

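Single-cell RNA sequencing was performed on 1 control and 1 *Smo* cKO library of the 4 dpi rib callus (10x Chromium). The authors used Cell Ranger 3.0.2 with the mm10 genome, and the deposited values are raw UMI counts per gene and barcode, without normalization. UMIs were summed per class and library and divided by the UMIs of the class (CPM), with exact Poisson ratio, Clopper-Pearson and Newcombe intervals at 95%. A class needed at least 0.4 of its markers and a lead of 0.1 over the next class (looser 0.3 and 0.05, stricter 0.5 and 0.3). Cells without that lead were left out of the classes, but a cell past 0.4 for more than 1 class stayed if 1 class led. The median osteoclast, endothelial and muscle cell expressed 40% of the connective markers. Mixed cells can thus remain in the classes, and no doublet caller was run. Genes named were all members, pathway lists and, per member, the 3 genes with the highest correlation. Pathway genes under 50 CPM that are named were chosen after their values were seen, and 1 gene of the interferon-gamma list is not reported here. The members and lists were chosen with earlier results of these data known. Connective sums are the most precise, and classes under 120 cells rest on few UMIs for some members. The alternatives changed filters, class cut-offs, weighting, thinning and floors. Python 3.11.15 was used with numpy 2.4.6, scipy 1.17.1, pandas 2.3.3 and matplotlib 3.10.9. The fold rule was also run on simulated connective sums, with independent counts and planted changes larger than 2-fold. That run held no small class and no spread between cells or libraries, so it is no check on these.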

Additional observations from a re-analysis of the deposited data

Results flagged for a closer look

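Some members differed in opposite directions in different cell classes, each with an interval that excluded 0 and at least 20 UMIs in both libraries. The difference between the classes was not tested. *Cxcl1* had a log2 ratio of 0.51 in connective cells and -0.84 in neutrophils. In the same neutrophils connective markers were at 4369 and 1995 CPM, and *Cxcl1* UMIs per 100 UMIs of *Col1a2*, *Col3a1* and *Dcn* were 8.83 and 11.2, beside 6.87 and 11.44 in connective cells. *Cxcl2* had 0.55 in connective cells and -1.43 in neutrophils, and *Cxcl3* had 1.12 and -1.17. *Pf4* had 0.0340 in macrophages and -1.42 in dendritic cells. The macrophage value is small (interval 0.01 to 0.06) and its direction turned with stricter class cut-offs. The neutrophil values rest on 84 and 117 cells, and the *Cxcl3* value of neutrophils turned with other class cut-offs. A single control neutrophil held 30.15% of the *Cxcl2* UMIs of its class. For *Cxcl1* and *Cxcl3* the top control neutrophil held 27.5% and 50%.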

How the results depend on the processing

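Of 26 class ratios, 23 had an interval excluding 0. Of these, 23 kept their direction without the deepest 5% of cells, after division by the median gene ratio, without the mitochondrial filter and, chosen after seeing the data, without the shared barcodes or the cell with most UMIs of the gene. The number was 22 with looser cut-offs and with equal weight per cell, 20 without cells over 2000 genes and 19 with stricter cut-offs. Without cells over 2000 genes the connective log2 ratios were 0.0412 for *Cxcl1*, -1.04 for *Cxcl5*, 2.21 for *Cxcl9*, 1.09 for *Cxcl10* and 0.84 for *Cxcl14*, the endothelial *Cxcl10* ratio was -0.39, and the differences in thinned connective shares were -1.09 points for *Cxcl1* and 0.70 points for *Cxcl14*. With equal weight per cell the connective ratios were 0.42 for *Cxcl1*, -0.11 for *Cxcl5*, 3.04 for *Cxcl9*, 1.48 for *Cxcl10* and -0.36 for *Cxcl14*, with 0.0709 for *Pf4* in macrophages and -0.96 for *Cxcl2* in neutrophils. Without the deepest 5% *Cxcl1* was at 0.50 and *Cxcl14* at -0.57, without shared barcodes at 0.52 and -0.80, and after division by the median gene ratio *Cxcl1* was at 0.45 and *Pf4* in macrophages at 0.0703. With stricter cut-offs the ratio was -0.0707 for *Pf4* in macrophages, -0.15 for *Cxcl2* in dendritic cells, and -0.74 for *Cxcl2*, 2.42 for *Cxcl3* and 1.15 for *Cxcl16* in neutrophils, with looser ones -1.30 for *Cxcl2* and 0.0940 for *Cxcl3* in neutrophils, and without the top cells -1.17 for *Cxcl2* there. Genes past 2-fold in connective cells were 20 higher and 4 lower, 42 and 11 at a floor of 20 CPM, and 564 and 534 with only 10 UMIs asked for. The cause of these changes was not tested. No paired analysis was possible because each genotype has 1 library, so no replicate could be left out either. Rare members in classes of few cells are limited by depth.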
